A study of Mus musculus with 8 samples.

Results

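The genes described here are 44 components of TGF-beta and BMP signalling, measured in the aorta of newborn mice with and without Lox, the gene of lysyl oxidase, which starts the crosslinking of elastin and collagen. Each component was chosen by its gene symbol in the array's platform table, and each had exactly 1 probe set that carried no other symbol, among 22180 genes with such a probe set. All 44 passed the filter on dim genes, which left 16635 genes tested. The 4 groups were Lox knockout (KO) ascending aorta, wild-type (WT) ascending aorta, KO descending aorta and WT descending aorta, all at p0 on an albino C57BL/6J background, with 2 arrays in each. Tissue of 8 pups of the same genotype was pooled for every array, which makes n = 2 in each group for all values below. The ascending segment ran from the aortic valve to the ductus arteriosus, and the descending segment from the vena cava to the diaphragm. The sources used here do not describe the Lox allele or say whether ascending and descending pools came from the same pups.

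TGF-beta is secreted in a latent complex that latent TGF-beta binding proteins attach to the extracellular matrix, and it is released there before it binds a pair of kinase receptors. TGF-beta and activin receptors phosphorylate SMAD2 and SMAD3, BMP receptors phosphorylate SMAD1, SMAD5 and SMAD9, and both kinds of SMAD act in the nucleus with SMAD4. The pathway induces its own inhibitors, and mutations of its ligands, receptors and SMADs cause aneurysm of the thoracic aorta in people.

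Values are RMA signals on the log2 scale, so a difference of 1 is a doubling of signal, and levels of different genes are not compared because each probe set has its own response. Each gene was fitted in limma over all 8 arrays, and a gene is said to rise, fall or change where its adjusted p (Benjamini-Hochberg, across the 16635 genes) was under 0.05. Averaged comparisons set all KO arrays against all WT arrays, or all ascending against all descending arrays, with the groups weighted equally. In these bulk samples, fewer cells of a type and less RNA per cell cannot be told apart. The labels call the pools of a group biological replicates, and the p-values measure spread between pools.

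Before the values, the promoters of 4 components that the comparisons below turn on are shown, with SMAD-type motifs that a search found in them. They are Fstl3 and Ltbp2, which rose in KO aorta in both segments, Smad6, which was low in WT descending aorta only, and Bmpr2, a receptor that fell on average, chosen after their values were seen. Sequences are from RefSeq on GRCm38.p6 and run from 250 bases before to 50 bases after the gene's start, 5′ to 3′ on the gene's strand. Fstl3 lies at chr10:79777024-79777323 on the plus strand, Ltbp2 at chr12:84876442-84876741 on the minus strand, Smad6 at chr9:64022010-64022309 on the minus strand and Bmpr2 at chr1:59764029-59764328 on the plus strand. Capitals mark a match to CAGACA or GTCTAGAC, to which SMAD3 and SMAD4 can bind, or to GGCGCC, a palindrome bound by BMP SMADs.
Fstl3: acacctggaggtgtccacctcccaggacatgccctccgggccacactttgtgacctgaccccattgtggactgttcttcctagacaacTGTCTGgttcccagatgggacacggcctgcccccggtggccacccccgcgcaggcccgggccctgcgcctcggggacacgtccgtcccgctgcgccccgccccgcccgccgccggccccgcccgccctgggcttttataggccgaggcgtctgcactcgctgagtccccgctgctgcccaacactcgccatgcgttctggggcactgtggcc
Ltbp2: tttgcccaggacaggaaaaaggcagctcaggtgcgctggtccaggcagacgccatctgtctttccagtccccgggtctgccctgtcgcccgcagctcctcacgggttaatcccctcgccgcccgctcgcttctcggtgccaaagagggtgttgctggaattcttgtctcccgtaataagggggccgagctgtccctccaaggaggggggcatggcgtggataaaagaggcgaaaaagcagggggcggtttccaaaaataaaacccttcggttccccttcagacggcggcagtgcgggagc
Smad6: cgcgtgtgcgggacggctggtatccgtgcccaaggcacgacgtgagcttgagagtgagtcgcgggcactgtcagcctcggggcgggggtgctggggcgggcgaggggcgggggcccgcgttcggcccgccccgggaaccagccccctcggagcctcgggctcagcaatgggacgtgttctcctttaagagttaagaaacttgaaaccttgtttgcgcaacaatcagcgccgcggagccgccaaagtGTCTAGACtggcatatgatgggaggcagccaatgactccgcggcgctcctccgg
Bmpr2: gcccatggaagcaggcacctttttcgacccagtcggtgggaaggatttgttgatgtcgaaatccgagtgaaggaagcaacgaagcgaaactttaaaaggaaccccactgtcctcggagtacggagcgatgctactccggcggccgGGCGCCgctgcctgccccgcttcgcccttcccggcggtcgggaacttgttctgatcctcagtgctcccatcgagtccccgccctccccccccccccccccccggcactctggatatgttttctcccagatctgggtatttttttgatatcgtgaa

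The Fstl3 window holds CAGACA once, read on the other strand as TGTCTG, and the Smad6 window holds the full palindrome GTCTAGAC. The Bmpr2 window holds GGCGCC, and the Ltbp2 window holds none of the 3 motifs. Both strands were searched. The table gave a promoter for 29 of the 44 components, 39 promoters in all. GTCTAGAC was in 1 of these 39, that of Smad6, and in 70 of all 32851 promoters of the same length (0.213%). GGCGCC was in 28.2% of the components' promoters and in 11.9% of all promoters, and CAGACA in 20.5% and 21%. A match describes these letters and is not shown to be a bound site.

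Lox was lower in KO pools of both segments, which checks the labels. It read 8.51 to 8.87 on the 4 KO arrays and 11.24 to 11.60 on the 4 WT arrays. Markers of smooth muscle, the main cell of the aortic wall, were high in every group, with a mean over 7 genes of 10.45 to 10.62 on the 8 arrays, and 0 of the 7 changed between KO and WT. Endothelial markers were lower in KO aorta, with a mean over 10 genes of 7.86 to 7.87 in KO ascending and 8.17 to 8.30 in WT ascending arrays, and of 8.13 to 8.17 in KO descending and 8.47 to 8.54 in WT descending arrays. Fibroblast and adventitia markers, a mean over 6 genes, read 10.35 to 10.42 in KO ascending and 10.62 to 10.64 in WT ascending arrays. They read 10.36 to 10.43 in KO descending and 10.55 to 10.56 in WT descending arrays. On average Pdgfra and Dpt fell and Pi16 rose, while Col14a1, Lum and Dcn did not pass. Other tissues varied too. Neutrophil markers read 6.96 to 6.98 in KO ascending and 5.29 to 5.84 in WT ascending arrays, and 6.44 to 6.99 in KO descending and 5.75 to 6.07 in WT descending arrays, and 5 of 7 rose on average. Macrophage markers read 7.52 to 7.64 in KO ascending and 6.99 to 7.12 in WT ascending arrays, and 7.74 to 7.77 in KO descending and 7.16 to 7.24 in WT descending arrays, and 4 of 5 rose on average. Fat markers averaged 6.72 in KO ascending and 7.61 in WT ascending arrays, and 7.72 in KO descending and 8.76 in WT descending arrays, with no overlap of KO and WT within a segment, and 4 of 5 fell on average. Of all genes tested, 6.21% rose and 5.22% fell on that comparison. Liver markers read 7.05 and 6.93 in KO ascending and 6.45 and 6.36 in WT ascending arrays. In the descending aorta they read 7.47 and 8.84 in KO and 6.05 and 5.51 in WT arrays, and every gene of the liver list rose on average. Lung epithelial markers read 4.59 and 4.73 in KO descending and 6.09 and 6.50 in WT descending arrays. The part of these markers in the differences below was not tested.

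**Figure D1:**
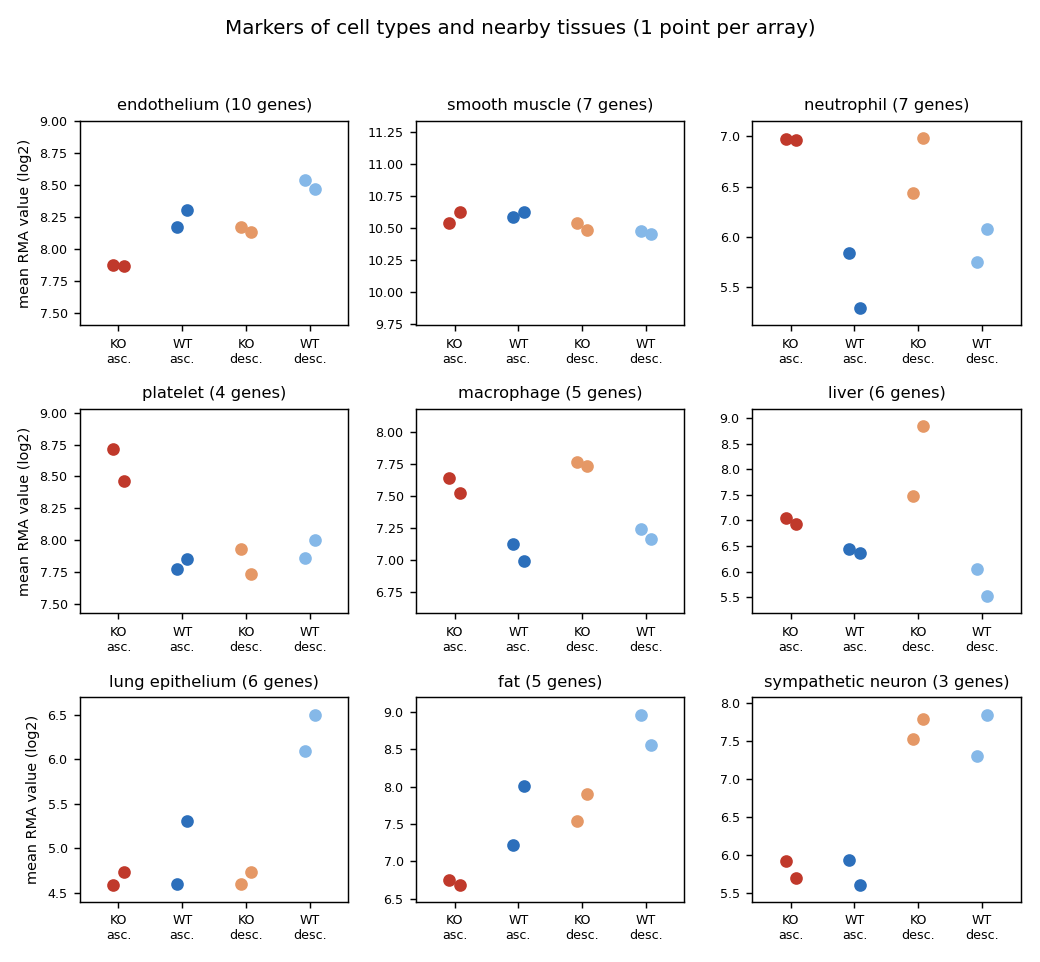
Mean RMA value (log2) of 9 marker lists on each of the 8 arrays, 1 point per array, with KO left of WT in each segment. Endothelial markers sat lower in KO than in WT arrays of the same segment (7.86 to 7.87 against 8.17 to 8.30 in ascending aorta), while smooth muscle markers stayed between 10.45 and 10.62.

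The first question was which components differed without lysyl oxidase. The components and the other lists were chosen with earlier results of these data known, so the shares below describe them and are not a test. Averaged over the segments, 15 of the 44 changed (34.1%), 11 higher and 4 lower in KO aorta, where 11.4% of all genes tested were called, 6.21% higher and 5.22% lower. Those that rose were mostly extracellular regulators and intracellular inhibitors of the pathway, namely Fstl3, Fst, Ltbp2, Smad6, Smad7, Skil and Pmepa1, with the ligand genes Tgfb3, Inhba, Inhbb and Bmp4. The 4 that fell were the ligand Bmp2 and the receptors Tgfbr2, Tgfbr3 and Bmpr2. Among brighter genes a larger share of all genes was called. With the filter on dim genes raised to the 50th percentile, 15 of 40 components and 2308 of 11090 genes were called. The median difference over the 44 was 0.04, against 0.0036 over all genes, and the arrays of KO and WT did not overlap in 12 of 44, against 17% of all genes. In the ascending aorta alone 4 of 44 changed, 3 higher and 1 lower, where 2.74% of all genes were called, 1.54% higher and 1.19% lower. In the descending aorta alone 6 changed, 5 higher and 1 lower, against 2.28% of all genes, 1.46% higher and 0.824% lower. The arrays of KO and WT did not overlap for 25 components in ascending and 31 in descending aorta, where this held for 49.5% and 51.1% of all genes, so that a gap between pairs of arrays was common. Without 1 array the averaged count was 9 to 11, with 9 without KO ascending replicate 1, WT ascending replicate 2, KO descending replicate 1 or WT descending replicate 1. With only the 4 arrays of a segment in the fit, Fstl3 alone passed in ascending and 0 components in descending aorta. The ascending count was 1 without any 1 of the 4 ascending arrays or without either WT descending array. The descending count was 0 without any 1 of the 4 descending arrays and 3 without either KO ascending array. In such fits the remaining array of a group takes its spread from the other groups.

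**Figure D2:**
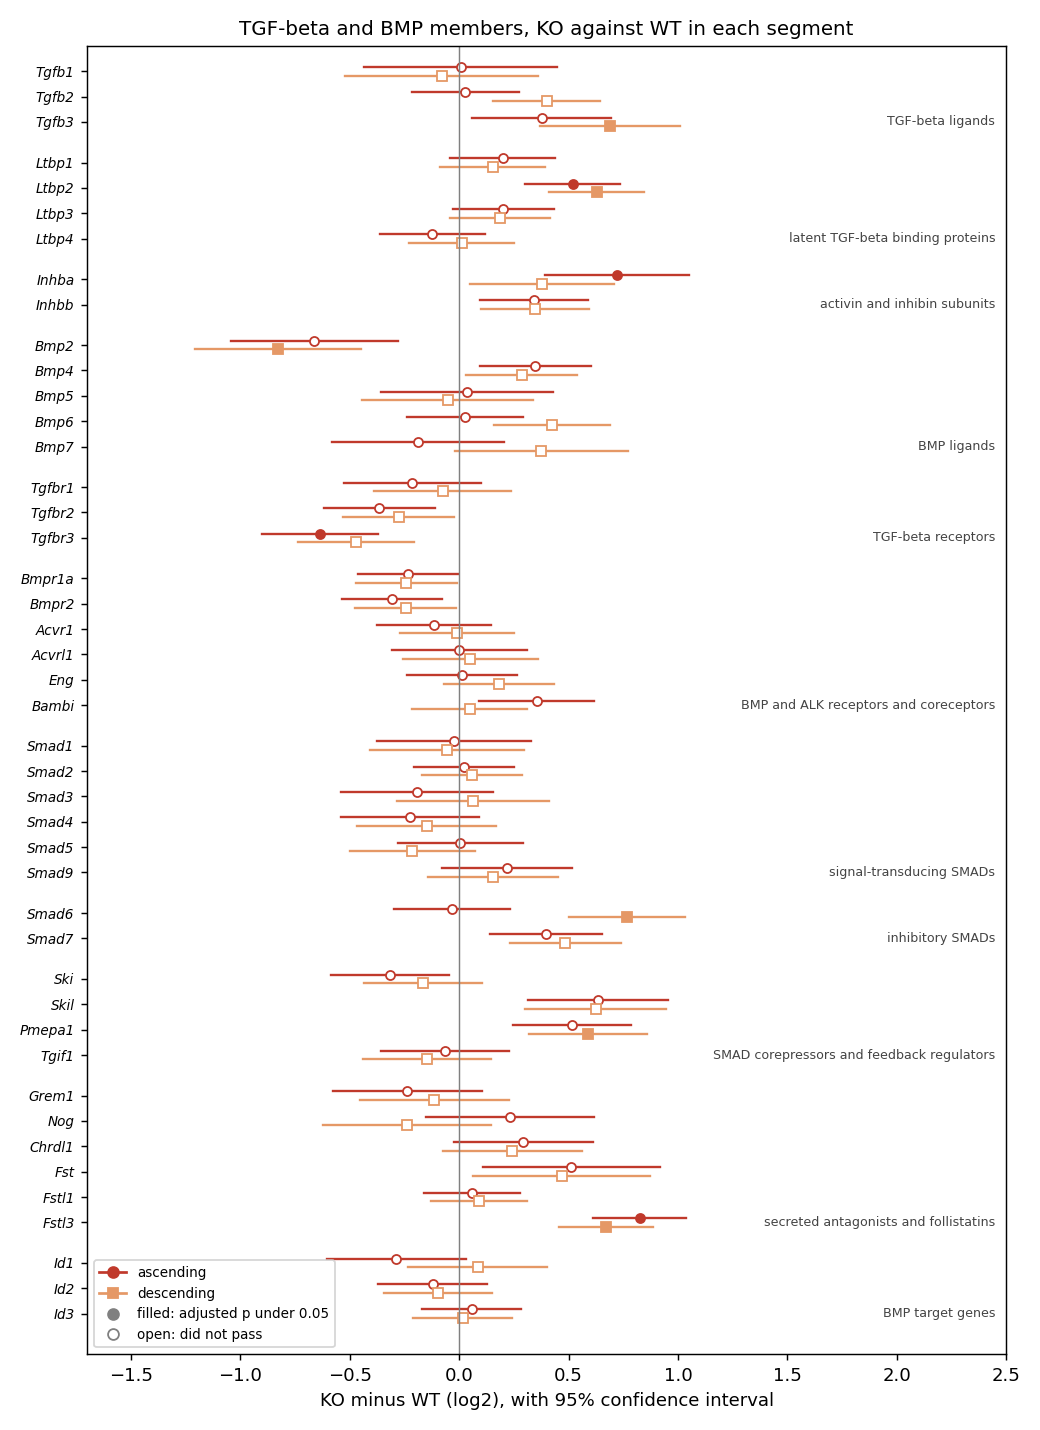
KO minus WT (log2) with 95% confidence intervals for the 44 components, grouped by role, in ascending (circles) and descending aorta (squares); filled symbols had an adjusted p under 0.05. Fstl3 and Ltbp2 are filled in both segments, and Bmp2 and Tgfbr3 lie to the left of 0 in both.

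Among the secreted antagonists, Fstl3 had the smallest p of the components. It encodes a follistatin-like glycoprotein that binds activin and related ligands. Fstl3 read 9.30 and 9.31 in KO ascending arrays, against 8.48 and 8.48 in WT ascending arrays. In the descending aorta it read 8.97 and 9.01 in KO and 8.30 and 8.34 in WT arrays. All 4 KO arrays therefore lay above all 4 WT arrays, with almost no spread within a group. Fstl3 rose by 0.82 (adjusted p = 0.00759) in ascending and by 0.67 (adjusted p = 0.0164) in descending aorta, each with an SE of 0.09. The average was 0.75, a 1.68-fold difference. The ascending and averaged calls held in every alternative analysis. The descending call ended without any 1 of the 4 descending arrays (adjusted p = 0.0776 to 0.13).

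Fst, follistatin, an activin antagonist of the same family, read 6.64 and 6.90 in KO ascending arrays and 6.42 and 6.09 in WT ascending arrays. It read 7.19 and 6.97 in KO descending arrays and 6.81 and 6.41 in WT descending arrays. The KO arrays were higher in each segment, with no overlap within a segment. Fst rose by 0.49 on average (SE 0.13, adjusted p = 0.0403), and neither segment alone passed. That call ended without either KO ascending array, WT ascending replicate 2, either KO descending array or WT descending replicate 2 (adjusted p = 0.0603 to 0.119), and without the filter (0.0566). The related Fstl1, a secreted glycoprotein with a follistatin domain, differed by 0.07 on average (95% confidence interval -0.08 to 0.23). The BMP antagonists Grem1 (gremlin) and Nog (noggin) differed by -0.18 (-0.42 to 0.07) and -0.0044 (-0.28 to 0.27), and Chrdl1, chordin-like 1, by 0.27 (0.04 to 0.49, adjusted p = 0.117).

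Of the 4 latent TGF-beta binding proteins only Ltbp2 changed, though the differences between these genes were not tested. Ltbp2 is a fibrillin-binding protein of elastic microfibrils which, unlike its relatives, does not bind latent TGF-beta covalently. It read 10.22 and 10.18 in KO ascending arrays, against 9.68 and 9.68 in WT ascending arrays. In the descending aorta it read 9.99 and 9.95 in KO and 9.30 and 9.37 in WT arrays. Each KO array was above every WT array. Ltbp2 rose by 0.52 (adjusted p = 0.0312) in ascending and by 0.63 (adjusted p = 0.0225) in descending aorta, each with an SE of 0.10. On average it rose by 0.57 (SE 0.07, adjusted p = 0.00295), a 1.49-fold difference. The averaged call held in every alternative. The ascending call ended without any 1 of the 8 arrays (adjusted p = 0.0503 to 0.141), and the descending call without any 1 of the 4 descending arrays (adjusted p = 0.081 to 0.158). Ltbp1 and Ltbp3, which hold TGF-beta in the matrix, differed by 0.18 (0.01 to 0.35, adjusted p = 0.166) and 0.19 (0.03 to 0.36, adjusted p = 0.118) on average, and Ltbp4 by -0.06 (-0.22 to 0.11).

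Of the 6 inhibitory SMADs, corepressors and feedback regulators inside the cell, 4 rose on average (Smad6, Smad7, Skil and Pmepa1) and the corepressors Ski and Tgif1 did not pass. Of all genes tested, 6.21% rose on that comparison, and this list was chosen with earlier results known. Smad6, low only in WT descending arrays, is described apart below. Smad7 encodes the inhibitory SMAD that recruits ubiquitin ligases to the TGF-beta receptor. It read 8.39 and 8.49 in KO ascending and 7.96 and 8.12 in WT ascending arrays, and 8.21 and 8.18 in KO descending and 7.62 and 7.80 in WT descending arrays. No KO array was as low as any WT array. Smad7 rose by 0.44 on average (SE 0.08, adjusted p = 0.0118), and the 2 segments gave 0.40 (adjusted p = 0.101) and 0.49 (adjusted p = 0.0642) alone.

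Skil encodes SnoN, a corepressor that holds SMAD2 and SMAD3 targets silent. It read 8.16 and 8.19 in KO ascending and 7.36 and 7.73 in WT ascending arrays. In the descending aorta Skil read 8.07 and 7.91 in KO and 7.44 and 7.29 in WT arrays. All KO arrays were above all WT arrays, and Skil rose by 0.63 on average (SE 0.10, adjusted p = 0.00771). Pmepa1, a membrane protein induced by TGF-beta that binds receptor SMADs, read 10.13 and 10.16 in KO ascending and 9.76 and 9.49 in WT ascending arrays. It read 10.01 and 9.90 in KO descending and 9.40 and 9.34 in WT descending arrays. Here too the genotypes did not overlap, and Pmepa1 rose by 0.55 on average (SE 0.08, adjusted p = 0.00678) and by 0.59 in the descending aorta (adjusted p = 0.0469). The averaged calls of Smad7, Skil and Pmepa1 held in every alternative. The descending call of Pmepa1 ended without either KO ascending array or any 1 of the 4 descending arrays (adjusted p = 0.0713 to 0.204), and without the filter on dim genes (0.0705). Of the corepressors, Ski differed by -0.24 (-0.43 to -0.05, adjusted p = 0.102) and Tgif1 by -0.11 (-0.31 to 0.10).

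Smad6, the inhibitory SMAD that acts mainly on BMP signals, had another pattern. It read 8.39 and 8.25 in KO ascending arrays, 8.36 and 8.35 in WT ascending arrays and 8.33 and 8.37 in KO descending arrays, against 7.46 and 7.71 in WT descending arrays. Only the WT descending arrays were low. Smad6 rose by 0.77 (SE 0.12, adjusted p = 0.0225) in KO against WT descending aorta and differed by -0.03 (-0.30 to 0.23) in the ascending aorta. In the test of the difference between these effects it had the smallest p of the 44 (-0.80, unadjusted p = 0.00104), which did not pass over all genes (adjusted p = 0.651). Limma called 0 genes in that test, with 932 genes and 4 of the 44 at an unadjusted p under 0.05, the other members being Tgfb2, Bmp6 and Bmp7. The 2 WT descending pools were also those with the highest mean of lung epithelial markers, 6.09 and 6.50 against 4.59 to 5.30 on the other 6 arrays. Among these markers Sftpc read 8.37 and 10.15 in WT descending arrays. Scgb1a1 was highest in WT ascending replicate 2 (8.25), and Napsa overlapped between WT descending (5.16 and 5.39) and KO ascending arrays (5.06 and 5.36). The WT descending pools also had the highest fat (8.96 and 8.56) and endothelial markers (8.54 and 8.47) and the lowest liver markers (6.05 and 5.51). The part of any of these markers in the Smad6 values was not tested. The descending call ended without any 1 of the 4 descending arrays (adjusted p = 0.0554 to 0.146). The averaged call (0.37, adjusted p = 0.0258) ended without KO ascending replicate 1, either WT ascending array, either KO descending array or WT descending replicate 1 (0.0607 to 0.0885).

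**Figure D3:**
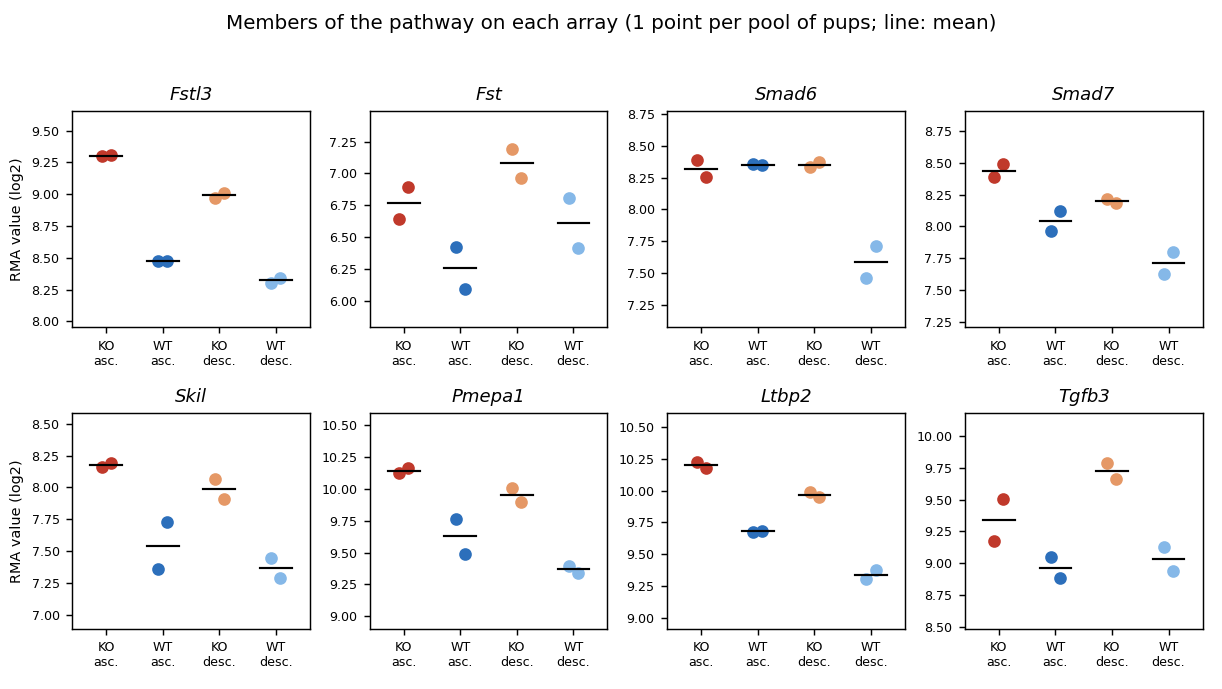
RMA values (log2) of 8 components on each array, 1 point per pool, with the group mean as a line and KO left of WT in each segment. Fstl3, Smad7, Skil, Pmepa1 and Ltbp2 are higher in all 4 KO arrays than in any WT array, whereas Smad6 is low only in WT descending aorta (7.46 and 7.71).

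Among the TGF-beta ligands only Tgfb3 changed, and differences between the 3 genes were not tested. Tgfb3 read 9.18 and 9.50 in KO ascending and 9.05 and 8.88 in WT ascending arrays, and 9.79 and 9.66 in KO descending and 9.13 and 8.94 in WT descending arrays. The KO arrays were above all WT arrays, by a narrow margin in KO ascending replicate 1. Tgfb3 rose by 0.69 (SE 0.14, adjusted p = 0.0472) in descending aorta and by 0.53 on average (adjusted p = 0.0135), and gave 0.38 (adjusted p = 0.193) in the ascending aorta. The averaged call held in every alternative, but the descending call ended without any 1 of the 8 arrays (adjusted p = 0.0503 to 0.201) and without the filter (0.0701). Tgfb1, which platelets also store, differed by 0.01 (-0.43 to 0.45) in the ascending and -0.08 (-0.52 to 0.36) in the descending aorta. Platelet markers read 8.72 and 8.47 in KO ascending and 7.77 and 7.86 in WT ascending arrays. In descending arrays these markers averaged 7.83 in KO and 7.93 in WT. Of the platelet genes, Ppbp (1.65, adjusted p = 0.0178) and Gp9 (1.08, adjusted p = 0.0164) rose in the ascending aorta. Pf4 (0.15, adjusted p = 0.546) and Itga2b (0.22, adjusted p = 0.548) did not pass there. Tgfb2, the ligand of outflow tract development, differed by 0.03 (-0.22 to 0.27) in the ascending and 0.40 (0.16 to 0.64, adjusted p = 0.0952) in the descending aorta.

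The activin subunit genes were higher in KO aorta. Inhba, the subunit of activin A, read 6.72 and 6.57 in KO ascending arrays, against 5.89 and 5.96 in WT ascending arrays. It read 6.07 and 5.65 in KO descending and 5.48 and 5.48 in WT descending arrays. The genotypes were apart within each segment, by a smaller gap in the descending aorta. Inhba rose by 0.72 (SE 0.14, adjusted p = 0.0431) in the ascending aorta and by 0.55 on average (adjusted p = 0.0136), and gave 0.38 (0.05 to 0.71, adjusted p = 0.209) in the descending aorta. Its ascending call ended without any 1 of the 4 ascending arrays or either WT descending array (adjusted p = 0.0737 to 0.187) and without the filter (0.0601), and its averaged call without WT descending replicate 1 (0.0509). Inhbb, the subunit of activin B, read 6.08 and 5.99 in KO ascending, 5.70 and 5.69 in WT ascending, 5.96 and 5.82 in KO descending, and 5.62 and 5.47 in WT descending arrays. All KO arrays were above all WT arrays, and Inhbb rose by 0.34 on average (SE 0.08, adjusted p = 0.0253). This call ended without any 1 array other than KO descending replicate 2 (adjusted p = 0.0502 to 0.0807).

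Among the BMP ligands Bmp2 fell and Bmp4 rose. Bmp2 read 4.86 and 4.56 in KO ascending and 5.40 and 5.34 in WT ascending arrays, and 4.27 and 3.81 in KO descending and 4.80 and 4.93 in WT descending arrays. KO arrays were lower within each segment, at signals near the filter on dim genes, which lay at 4.11. Bmp2 fell by 0.83 (SE 0.17, adjusted p = 0.0469) in descending aorta and by 0.74 on average (adjusted p = 0.00771), a 1.68-fold difference, and gave -0.66 (adjusted p = 0.0762) in the ascending aorta. The averaged call held in every alternative that tested the gene, and the descending call ended without any 1 of the 8 arrays (adjusted p = 0.0513 to 0.199), with cyclic loess (0.0527) and without the filter (0.0675). Bmp4 read 8.83 and 8.95 in KO ascending, 8.58 and 8.51 in WT ascending, 8.63 and 8.42 in KO descending, and 8.24 and 8.24 in WT descending arrays. It was higher in KO within each segment and rose by 0.32 on average (SE 0.08, adjusted p = 0.0368), a call that ended without any 1 array other than KO descending replicate 2 (0.0654 to 0.108) and without the filter (0.056). Bmp6 differed by 0.03 (-0.24 to 0.29) in the ascending and 0.43 (0.16 to 0.69, adjusted p = 0.101) in the descending aorta, and Bmp5 and Bmp7 by -0.01 (-0.29 to 0.27) and 0.09 (-0.19 to 0.37) on average.

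Receptor genes were lower in KO aorta where they changed. Tgfbr3 encodes betaglycan, a coreceptor that presents TGF-beta and inhibin. It read 7.76 and 7.98 in KO ascending and 8.48 and 8.53 in WT ascending arrays, and 7.83 and 7.97 in KO descending and 8.42 and 8.32 in WT descending arrays. Every KO array was below every WT array. Tgfbr3 fell by 0.64 (SE 0.12, adjusted p = 0.0311) in the ascending aorta and by 0.55 on average (adjusted p = 0.00653), and gave -0.47 (adjusted p = 0.0802) in the descending aorta. The averaged call held in every alternative, and the ascending call ended without any 1 of the 4 ascending arrays or either WT descending array (0.056 to 0.149).

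Tgfbr2, the type II receptor that binds TGF-beta first, read 7.84 and 7.74 in KO ascending, 8.11 and 8.20 in WT ascending, 7.94 and 7.79 in KO descending, and 8.21 and 8.06 in WT descending arrays. Bmpr2, the type II receptor for BMPs, read 10.28 and 10.39 in KO ascending, 10.68 and 10.62 in WT ascending, 10.35 and 10.29 in KO descending, and 10.61 and 10.52 in WT descending arrays. Both genes were lower in every KO array than in any WT array. Tgfbr2 fell by 0.32 on average (SE 0.08, adjusted p = 0.0361) and Bmpr2 by 0.28 (SE 0.07, adjusted p = 0.0416). Both calls ended without any 1 of the 8 arrays (adjusted p = 0.0575 to 0.12 for Tgfbr2 and 0.0643 to 0.129 for Bmpr2), and without the filter (0.055 and 0.0647). On the same averaged comparison 6 of 10 endothelial markers fell, with a median of -0.33, where 5.22% of all genes fell. Of the fibroblast and adventitia markers, Pdgfra fell by 0.57 and Dpt by 0.60, Pi16 rose by 0.31, and the others did not pass. The part of either cell type in the receptor differences was not tested. The endothelial receptor Acvrl1 and its coreceptor Eng (endoglin) differed by 0.03 (-0.19 to 0.24) and 0.10 (-0.08 to 0.28). Tgfbr1, Bmpr1a and Acvr1, type I receptors, gave -0.14 (-0.37 to 0.08), -0.24 (-0.40 to -0.08, adjusted p = 0.0668) and -0.06 (-0.25 to 0.12), and Bambi, a decoy receptor that lacks a kinase domain, gave 0.20 (0.02 to 0.39, adjusted p = 0.152).

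**Figure D4:**
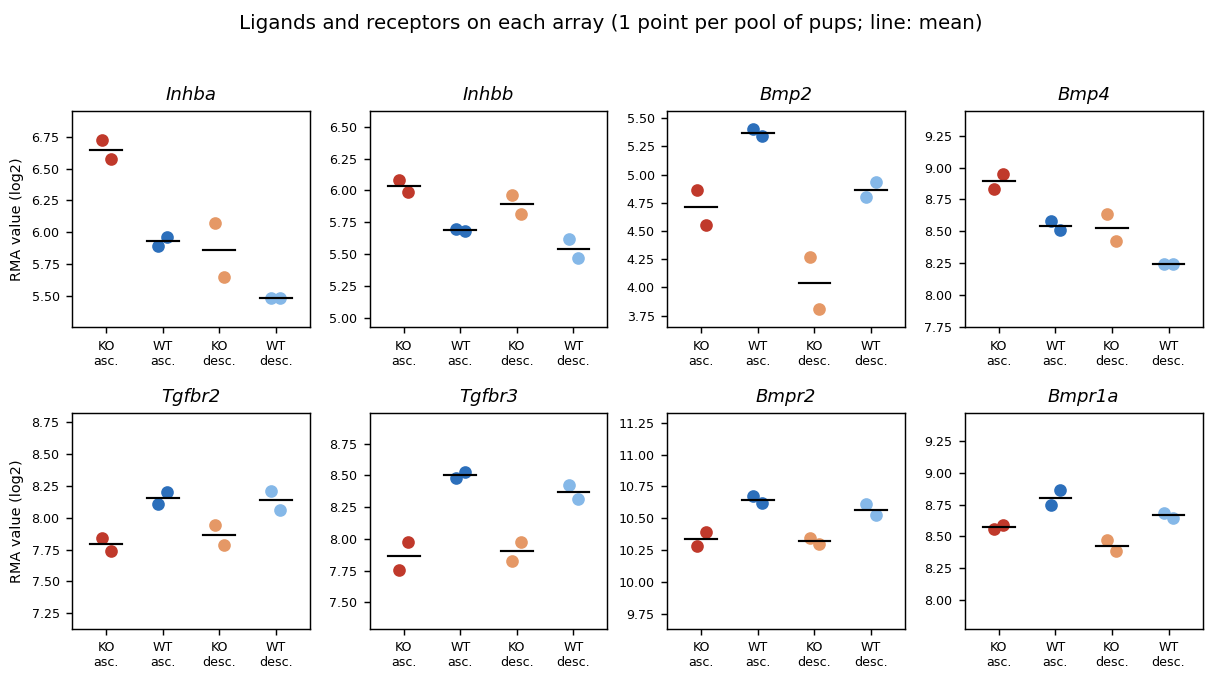
RMA values (log2) of 4 ligand genes and 4 receptor genes on each array, 1 point per pool, with the group mean as a line and KO left of WT in each segment. Inhba, Inhbb and Bmp4 are higher, and Bmp2, Tgfbr2, Tgfbr3 and Bmpr2 lower, in KO than in WT arrays of the same segment.

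The SMADs that carry the signal did not pass between genotypes. Of Smad1, Smad2, Smad3, Smad4, Smad5 and Smad9, 0 of 6 changed in limma in the ascending, descending or averaged comparison, and 0 had an unadjusted p under 0.05 in any of the 3. Their averaged differences ran from -0.19 (Smad4, -0.41 to 0.04) to 0.19 (Smad9, -0.02 to 0.40). The BMP target genes Id1, Id2 and Id3, inhibitors of basic helix-loop-helix factors, likewise gave 0 of 3 calls and 0 of 3 unadjusted. Id1 read 7.42 and 7.31 in KO ascending and 7.66 and 7.64 in WT ascending arrays, and 7.60 and 7.20 in KO descending and 7.36 and 7.27 in WT descending arrays. Its groups did not overlap in the ascending aorta and overlapped in the descending aorta, with differences of -0.29 (-0.61 to 0.03) and 0.08 (-0.23 to 0.40). Id2 and Id3 gave -0.11 (-0.28 to 0.07) and 0.04 (-0.12 to 0.20) on average.

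Other genes of the pathway, listed apart from the 44, were 87 in number, of which 80 had a probe set of their own and 76 were tested. On the averaged comparison 8 of the 76 rose and 4 fell, 15.8% of them, where 11.4% of all genes were called, 6.21% higher and 5.22% lower. In ascending aorta alone 4 rose and 1 fell, against 2.74% of all genes called, and in descending aorta alone 6 rose and 1 fell, against 2.28%. Thbs1, thrombospondin 1, which can release TGF-beta from its latent complex, read 10.48 and 10.56 in KO ascending and 9.18 and 8.72 in WT ascending arrays, and 9.99 and 9.70 in KO descending and 8.80 and 8.64 in WT descending arrays. Ccn2, a matricellular protein and common TGF-beta target, read 11.75 and 11.79 in KO ascending and 11.13 and 11.29 in WT ascending arrays, and 11.61 and 11.52 in KO descending and 11.03 and 10.77 in WT descending arrays. Both were higher in all KO arrays, with averaged differences of 1.35 (adjusted p = 0.00105) and 0.61 (adjusted p = 0.00539).

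Of 9 tested genes often used as readouts of TGF-beta, 2 rose and 0 fell on average, Ccn2 and the collagen receptor subunit Itga11 (1.45, adjusted p = 0.000319), while Tgfbi and Postn gave -0.12 (adjusted p = 0.39) and -0.09 (adjusted p = 0.468). Of 6 readouts of BMP, 0 rose and 1 fell. That gene was Dlx5, a homeobox factor, which fell by 0.76 (adjusted p = 0.0287) in the ascending aorta, at 7.14 and 7.46 in KO against 8.02 and 8.10 in WT arrays, and gave -0.02 in the descending aorta. Among other ligands Bmp3 rose by 1.05 on average (adjusted p = 0.00184), with 8.73 and 8.37 in KO descending and 7.17 and 6.88 in WT descending arrays, and Inha, the inhibin subunit that opposes activin, fell by 0.59 (adjusted p = 0.00553). The integrin subunit Itgb3, part of a receptor for latent TGF-beta, rose by 0.58 (adjusted p = 0.00445), Emilin1, an elastic fibre protein that limits TGF-beta processing, by 0.38 (adjusted p = 0.0229), and Ppm1a, a SMAD phosphatase, fell by 0.39 (adjusted p = 0.0217). In the ascending aorta Gdf2 (BMP9), made mainly by the liver, rose by 0.48 (adjusted p = 0.0402), and in the descending aorta the microfibril gene Fbn2 rose by 0.64 (adjusted p = 0.0479).

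The second question was how the components differed along the aorta. Averaged over genotypes, 6 of 44 changed, 5 higher and 1 lower in ascending aorta, against 4.07% of all genes tested, 1.5% higher and 2.57% lower. The ascending and descending arrays did not overlap for 5 of the 44, against 7.26% of all genes. Bmp7, Inhba, Bmp2, Smad9 and Smad6 were higher in ascending aorta, and Chrdl1 was lower. In WT aorta alone 3 changed, Bmp7 and Smad6 higher and Chrdl1 lower, and in KO aorta alone 2, Inhba higher and Chrdl1 lower, against 1.48% of all genes in each. Of all genes 0.511% were higher and 0.974% lower in WT, and 0.547% were higher and 0.938% lower in KO. The arrays of the segments did not overlap for 26 of the 44 in WT and 24 in KO, against 42.4% and 41% of all genes. The median difference over the 44 was 0.09 on average, against -0.0025 over all genes, and 34 of the 44 were positive. The averaged count was 2 to 4 without 1 array, with 3 without KO ascending replicate 1, WT ascending replicate 2 or KO descending replicate 2 and 2 without WT descending replicate 1. The WT count was 1 without WT ascending replicate 1 or WT descending replicate 1, and the KO count was 1 without 7 of the 8 arrays, KO descending replicate 1 being the exception. With only the 4 arrays of a genotype in the fit, Chrdl1 alone passed in each.

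Chrdl1, an extracellular BMP antagonist, had the largest segment difference among the 44. It read 6.98 and 7.36 in KO ascending and 8.99 and 8.98 in KO descending arrays. In WT aorta it read 6.87 and 6.88 in ascending and 8.85 and 8.64 in descending arrays. Every descending array lay above every ascending array. Chrdl1 was lower in ascending aorta, with a log2 difference of -1.81 in KO (SE 0.14, adjusted p = 0.00151) and of -1.86 in WT (SE 0.14, adjusted p = 0.000935), a 3.52-fold and a 3.64-fold difference. Both calls and the averaged call held in every alternative. Markers of sympathetic neurons were higher in the descending arrays too, at 5.70 to 5.91 in KO ascending and 7.53 to 7.79 in KO descending arrays, and at 5.61 to 5.93 in WT ascending and 7.31 to 7.85 in WT descending arrays. Fat markers, with the values given above, were also higher in descending than in ascending arrays of each genotype, and 4 of 5 passed on average. The part of either in the segment differences was not tested.

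Bmp7, a BMP ligand, read 6.20 and 6.28 in KO ascending and 5.87 and 5.61 in KO descending arrays, and 6.69 and 6.16 in WT ascending and 5.35 and 5.38 in WT descending arrays. All ascending arrays were above all descending arrays. Bmp7 was 1.06 higher (SE 0.17, adjusted p = 0.0257) in ascending aorta in WT, 0.50 (0.10 to 0.89, adjusted p = 0.284) in KO and 0.78 on average (adjusted p = 0.00966). The averaged call held in every alternative, whereas the WT call was lost on removing WT ascending replicate 1 (0.79, adjusted p = 0.0983) or either WT descending array (0.154 and 0.131).

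Smad9, a SMAD of the BMP branch, read 5.98 and 6.22 in KO ascending and 5.65 and 5.54 in KO descending arrays, and 5.76 and 6.00 in WT ascending and 5.37 and 5.51 in WT descending arrays. It was higher in all ascending arrays and by 0.47 on average (SE 0.09, adjusted p = 0.0262). That call ended without KO ascending replicate 2, WT ascending replicate 2 or any 1 of the 4 descending arrays (0.0597 to 0.101). With the values given above, Inhba was higher in ascending aorta by 0.79 in KO (adjusted p = 0.0402), and gave 0.45 (adjusted p = 0.231) in WT. On average Inhba was higher by 0.62 (adjusted p = 0.0125) and Bmp2 by 0.59 (adjusted p = 0.0293). The KO call of Inhba ended without any 1 array other than KO descending replicate 1 (0.0672 to 0.213) and without the filter (0.0562), and its averaged call without KO ascending replicate 1 or WT descending replicate 1 (0.0534 and 0.0513). The Bmp2 call ended without KO ascending replicate 1, either WT ascending array, KO descending replicate 2 or either WT descending array (0.0673 to 0.108).

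The segment difference of Smad6 rests on the same low WT descending arrays as its genotype difference. It was higher in ascending aorta by 0.77 in WT (SE 0.12, adjusted p = 0.0188), differed by -0.03 (-0.30 to 0.23) in KO, and was 0.37 higher on average (adjusted p = 0.0451). The WT call ended without either WT ascending array or WT descending replicate 1 (0.0737 to 0.128). The averaged call ended without any 1 array other than WT descending replicate 2 (0.0726 to 0.14), with cyclic loess (0.0615) and without the filter (0.0677). Among the other components, the 4 latent TGF-beta binding proteins gave ascending minus descending differences of 0.17 to 0.31 on average. Of these, 0 of 4 passed over all genes in limma. The TGF-beta receptors gave 0 of 3 calls, with differences of -0.03 to 0.22.

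**Figure D5:**
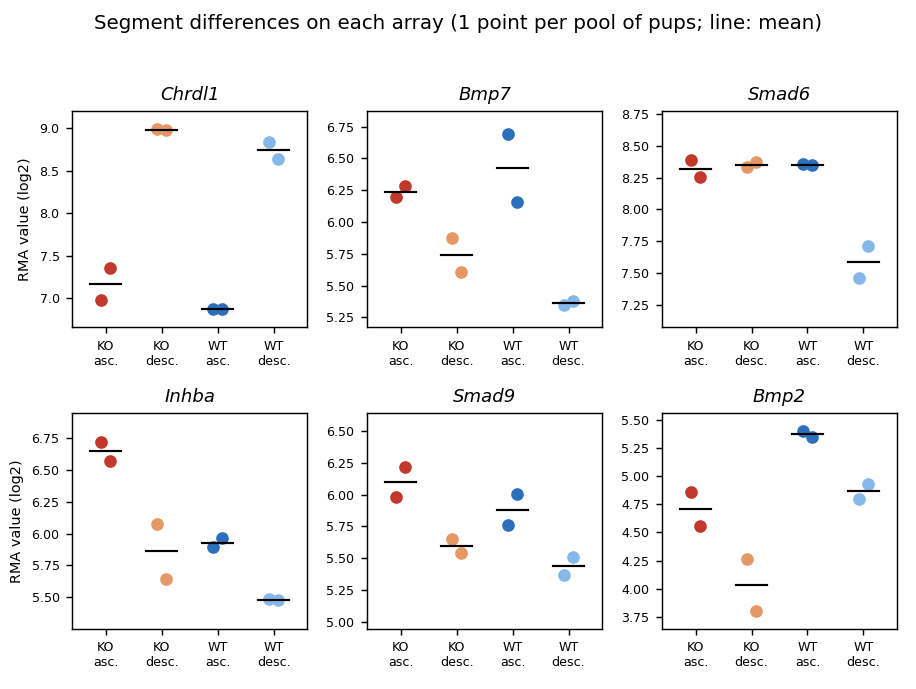
RMA values (log2) of the 6 components that differed between segments on average, on each array, 1 point per pool, with the group mean as a line and ascending left of descending in each genotype. Chrdl1 lies at 6.87 to 7.36 in ascending and 8.64 to 8.99 in descending aorta, and Bmp7 is higher in all ascending arrays.

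Of the 76 other pathway genes tested, 4 were higher and 2 lower in ascending against descending aorta on average, where 4.07% of all genes were called, 1.5% higher and 2.57% lower. Sost, sclerostin, an antagonist of Wnt signals first described beside BMP antagonists, was 0.99 higher (adjusted p = 0.00314), Dlx5 0.95 higher (adjusted p = 0.00126), Itgb8, an integrin subunit that activates latent TGF-beta, 0.80 higher (adjusted p = 0.00439), and Cdkn2b, a cell cycle inhibitor induced by TGF-beta, 0.53 higher (adjusted p = 0.0427). Itga11 gave -0.97 (adjusted p = 0.000957) and Gdf10, a BMP-like ligand, -0.69 (adjusted p = 0.00815). Gdf10 read 8.58 and 8.72 in KO ascending and 9.17 and 9.29 in KO descending arrays, and 8.71 and 8.60 in WT ascending and 9.66 and 9.24 in WT descending arrays, so that all descending arrays were higher. The segment calls of these other genes were likewise not followed through the alternative analyses.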

How the data were processed

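Total RNA of 8 pools of newborn mouse aorta was amplified with NuGEN reagents and labelled with biotin for Affymetrix arrays, per the labels' protocols. The authors deposited log2 RMA values, for which the submitters' processing notes name Affymetrix Expression Console without a version or options. Array medians were 5.11 to 5.19, and the number of arrays limits the precision. Of 41345 probe sets, 23521 had 1 gene symbol, 1814 several and 16010 none. The probe set with the highest mean was used for each gene, and a gene entered the fit if its mean reached the 25th percentile of all genes. Limma 3.58.1 in R 4.3.3 was fitted with 1 coefficient per group over 8 arrays, no covariate and default eBayes (residual df 4, prior df 4.51), with Benjamini-Hochberg adjustment over 16635 genes. In simulated data for the KO ascending against WT ascending comparison, 24.5% of genes changed by 0.5, 96.1% by 1 and 99.7% by 2 log2 units were recovered, among 16635 genes. Of the calls in these simulated data, 6.51% were false.

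The members, lists and tests were chosen with earlier results of these data known. All members are named, with values on every array for each of the 18 called in at least 1 of 7 comparisons, which already included the 4 with the smallest p in each comparison of 2 groups. Called genes of the other pathway list are named, at most 8 per comparison. The replicate numbers were not treated as pairing, because deviations of same-numbered arrays correlated between -0.10 and 0.13 over 6 pairs of groups. Such correlations cannot show that the pools were unpaired. The alternatives were a fit with no filter, with the filter raised to the 50th percentile, with a prior that was trended and robust, with cyclic loess, with a replicate block, with probe sets averaged per gene, with only the compared arrays, and without each array in turn. Averaging probe sets left the values of the components as they were, since each had 1 probe set. That setting could move their calls only through the other genes. Promoters were from RefSeq. Figures were drawn with matplotlib 3.10.9.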

Additional observations from a re-analysis of the deposited data

How the results depend on the processing

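The counts of components called were 4, 6 and 15 for KO against WT in ascending, descending and averaged aorta, and 3, 2 and 6 for ascending against descending in WT, KO and on average. Without the filter on dim genes the descending KO count was 3 and the KO segment count 1. With a trended robust prior the ascending and descending KO counts were 8 and 11 and the averaged segment count 11. With a fit on the compared arrays alone, the counts were 1 for KO against WT ascending, 0 for descending, and 1 in each segment comparison. With the replicate number as a block the descending KO count was 3, without Tgfb3 (adjusted p = 0.0664), Bmp2 (0.0516) and Pmepa1 (0.0575), and 13 averaged, without Bmp4 (0.0502) and Bmpr2 (0.0578). The block also ended the averaged segment call of Smad6 (0.0667) and no other call of a component. The sources do not say whether arrays of the same replicate number belong together. All other planned settings left these counts within 1.5 times. Leaving out 1 array gave 1 to 3 for ascending KO, 0 to 4 for descending KO, 9 to 11 averaged, 1 to 3 for the segments in WT, 1 to 2 in KO, 2 to 4 averaged, and 0 for the interaction throughout.

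Over all genes, 455, 380 and 1902 were called for KO against WT ascending, descending and averaged. These were 303, 155 and 1418 of 22180 genes without the filter, and 756, 717 and 2308 of 11090 genes with the 50th percentile. The trended robust prior gave 1014, 922 and 2604. With only the arrays compared, 100 and 105 were called in the ascending and descending aorta. The replicate block gave 384, 200 and 1725. For the segments, 247, 247 and 677 genes were called in WT, KO and on average, and 444, 430 and 951 with the trended robust prior, while only the arrays compared gave 167 in WT and 114 in KO. Leaving out 1 array gave 64 to 353 genes for ascending KO, 20 to 226 for descending KO and 782 to 1317 averaged, and 63 to 228, 54 to 191 and 390 to 542 for the segments in WT, KO and on average. The fall in calls with only the arrays compared or with 1 array left out comes with fewer samples in the fit. No named component that was called changed direction in any setting. The averaged KO calls of Tgfb3, Ltbp2, Bmp2, Tgfbr3, Smad7, Skil, Pmepa1 and Fstl3, 8 of 15, held in every alternative that tested them. The filter at the 50th percentile tested 40 of the 44 components. In the interaction test of all genes, 0 were called, against 1 with the trended robust prior and 11 without KO descending replicate 1, where 2 and 1 were called without WT descending replicates 1 and 2.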

Other observations

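Bmpr2 and Ltbp2 each have a further probe set that carries the symbol of a second gene, and these were kept out of the comparisons. The probe set shared by Bmpr2 and Gm20272 read 11.52 and 11.40 in KO ascending and 11.58 and 11.56 in WT ascending arrays, and 11.31 and 11.13 in KO descending and 11.63 and 11.60 in WT descending arrays. It was lower in every KO array, with an averaged difference of -0.25 (adjusted p = 0.066, against -0.28 for the Bmpr2 probe set alone). The probe set shared by Ltbp2 and D030025P21Rik read 6.26 and 5.90 in KO ascending and 5.77 and 5.81 in WT ascending arrays, and 5.82 and 5.72 in KO descending and 5.58 and 5.12 in WT descending arrays. It was higher in KO within each segment, with an averaged difference of 0.35 (adjusted p = 0.0968). Neither shared probe set passed in limma.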
